A study of Mus musculus with 32 samples.

Results

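The cytosolic ribosome is the particle that translates messenger RNA. Its small subunit reads the message and its large subunit joins the amino acids, and each is built from ribosomal RNA and a set of ribosomal proteins. The genes of these proteins are used in every cell, and dividing cells make large amounts of their messages. The mRNAs typically begin with a run of pyrimidines (C and T in DNA), known as the TOP motif, through which growth signals set their translation. Several ribosomal protein genes also serve as reference genes in PCR.

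The genes described here were 52 named ribosomal protein genes, taken from a list of names paired in order with the Ensembl identifiers of the array table. Of these, 49 had a row among the 21237 probe sets, 23 of the small subunit and 26 of the large subunit with its stalk. Rps12, Rpl13 and Rpl32 were not analysed here.

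The cell sources were BC57, a line of bladder cancer cells from the mouse, and normal mouse urothelium, the lining tissue of the bladder, taken from 9 mice. Each was divided into a formalin-fixed, paraffin-embedded portion (FFPE, fixed for 24 h) and a fresh-frozen portion (FF), and the resulting RNA was amplified with 3 kits and hybridized to 32 arrays in 12 groups. For each cell source the groups were FFPE RNA at 0.5 ng and 2 ng with GeneChip WT Pico (3 arrays each), FFPE RNA at 50 ng with SensationPlus (2 arrays), FF RNA at 0.5 ng and 2 ng with WT Pico (3 arrays each), and FF RNA at 100 ng with WT Plus (2 arrays), which the series names as its reference. Outside WT Pico each input was tied to a kit, so kit and input cannot be told apart there. No genotype, strain, age or treatment other than the preservation was given, and a cultured line was compared with a tissue, so cell source and culture cannot be told apart either. The labels tie no repeat to an animal or a culture of its own, so the p-values measure only the spread between repeats, which may be technical. The names of keratin, uroplakin or stromal markers could not be matched to rows, so the labels of the cell sources were not checked against markers here.

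All values are log2 signals made by RMA, a method that corrects background, normalizes arrays and summarizes the probes of a gene. A difference of 1 on this scale is 2-fold. A gene was counted as past the test at an adjusted p under 0.05 in limma, with Benjamini-Hochberg adjustment over all 21237 probe sets. No array held values identical to another, and pairs of arrays of a group correlated at 0.964 to 0.997 over all probe sets. Arrays give no counts, and precision is set by the 2 or 3 arrays of a group.

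Ribosomal protein genes have many processed pseudogenes, copies of the message in the genome. The RefSeq gene table named at least 1 pseudogene for 38 of the 49 genes, and up to 14 for Rpl7a. The files hold no probe sequences, so signal from such copies and from the gene itself cannot be told apart. For the same reason the signals of different genes do not rank their mRNA amounts. Differences below are therefore taken for the same gene between arrays. Where genes are ordered by signal, or the median of the 49 genes is set against that of an array, the values describe brightness only.

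The bases around the annotated transcription start are shown for genes on which the results turn. RefSeq start windows on GRCm38.p6 were found for 37 of the 49 genes, and each sequence printed here is 30 bases on the gene's strand that hold the annotated start, with the longest run of C and T within 20 bases either side of it in capitals. Counted with the annotated start as 0, the run begins at -2 in Rpl38, -3 in Rps24 and -8 in Rpl14 and covers the start in these genes. It begins at -20 in Rps25 and -18 in Rpl4 and ends before the start, and in Rps23 it begins at 3, after the start. All 6 genes lie on the plus strand. Rps24 has another annotated start (chr14:24490741-24490770), where the longest run has 7 bases and begins at 11, after that start. Rpl38 (chr11:114668565-114668594) and Rps24 (chr14:24490663-24490692) are shown because they differed between the cell sources, Rpl14 (chr9:120571502-120571531), Rps25 (chr9:44407694-44407723) and Rps23 (chr13:90923107-90923136) because they differed between kits, and Rpl4 (chr9:64173369-64173398) because it was among the genes that fell after fixation.
Rpl38: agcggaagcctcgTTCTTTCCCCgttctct
Rps24: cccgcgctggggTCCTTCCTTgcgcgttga
Rpl14: gggcgggCCCTCTCTCTTCTCgctgagcgc
Rps25: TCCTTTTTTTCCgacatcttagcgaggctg
Rps23: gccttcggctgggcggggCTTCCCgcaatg
Rpl4: TCTTTCCTTTTCCTgtgggagcagccgggt
A run of at least 8 pyrimidines on the gene's strand within 20 bases either side of an annotated start, covering the start or not, was present in 17 of the 37 genes (45.9%), against 4965 of 27025 genes with a start window (18.4%). The longest run in the Rps23 window was 6 bases, below that limit. A match only describes these letters, and its part in any value below was not tested.

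The 49 probe sets spanned nearly the whole signal scale of the arrays. Rplp1, a protein of the stalk that recruits translation factors, was brightest with a mean of 12.37 over the 32 arrays (11.02 to 13.11). Rpl4, which lines the peptide exit tunnel, averaged 11.35 (10.16 to 12.02), and Rpl8, a large-subunit protein near the catalytic centre, averaged 11.04 (9.39 to 11.96). At the dim end, Rpl5, which binds a short ribosomal RNA of the large subunit, averaged 5.05 (4.36 to 6.21), Rpl30, a protein of the large subunit, averaged 4.96 (4.14 to 6.15), and Rps3a1, of the small subunit, averaged 2.45 (1.96 to 3.03). Rps3a1 stayed below all other members on the mean, near the lowest value of the whole table (1.23), and its differences are therefore differences between very weak signals.

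**Figure D1:**
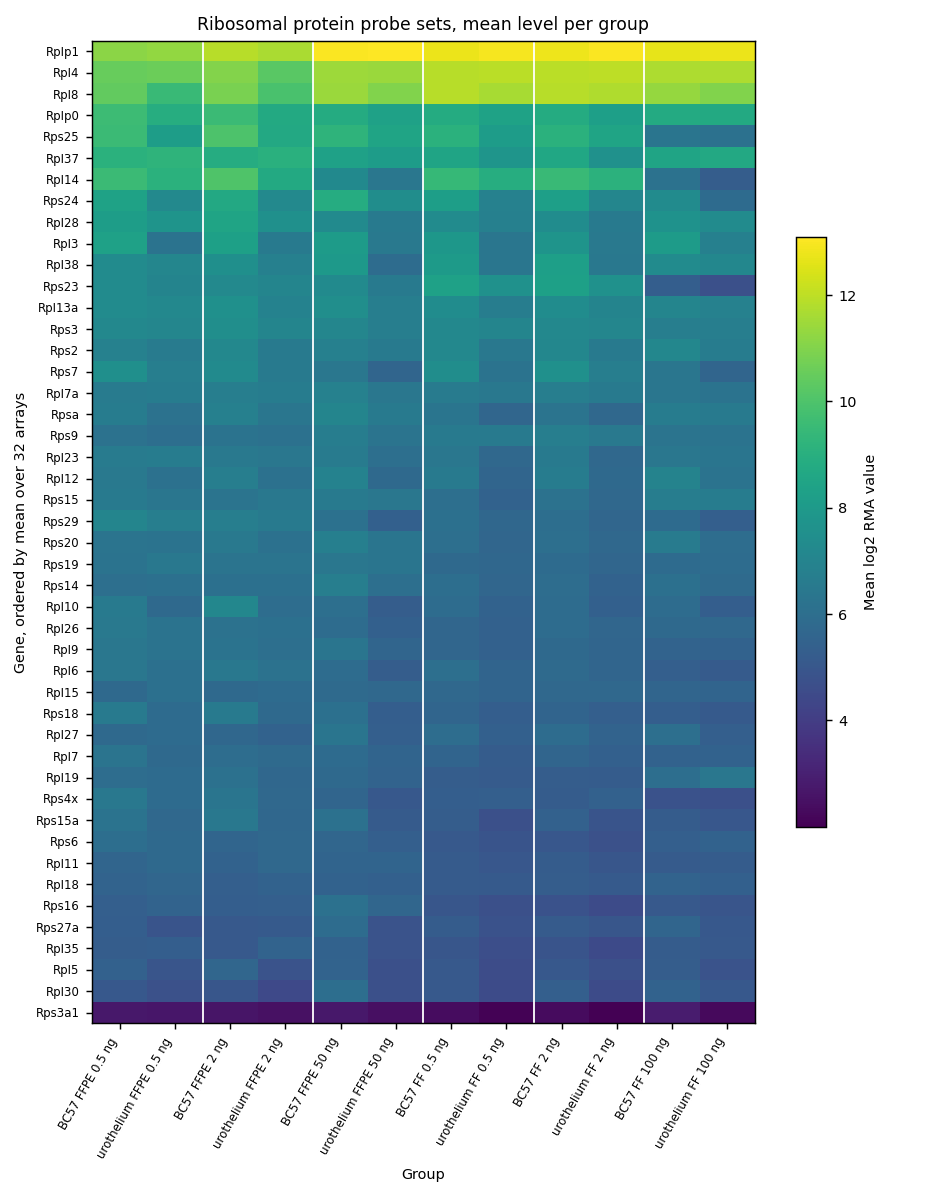
Mean log2 RMA signal (colour) of 46 of the 49 ribosomal protein genes, in rows ordered by their mean over 32 arrays, in the 12 groups, in columns. Rplp1, Rpl4 and Rpl8 are bright in every group, Rps3a1 is dim in every group, and Rpl14, Rps25 and Rps23 change colour between kits or preservations. Signals of different genes do not rank their mRNA amounts.

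As a group, the ribosomal protein genes sat higher on BC57 arrays than on urothelium arrays. The median signal of the 49 genes minus the median of all probe sets of the same array was 0.68 to 1.17 on the 16 BC57 arrays and 0.25 to 0.60 on the 16 urothelium arrays. These ranges did not overlap, in FFPE and FF RNA together. The same held within each preservation, with 0.74 to 1.17 on the 8 BC57 FFPE arrays and 0.38 to 0.60 on the 8 urothelium FFPE arrays, and with 0.68 to 1.02 on the 8 BC57 FF arrays and 0.25 to 0.55 on the 8 urothelium FF arrays. In bulk RNA a larger share of cells rich in these messages and more of them per cell cannot be told apart.

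The comparison of BC57 with urothelium asks how the cancer line differs from the tissue, and whether the difference is seen alike in each preservation, kit and input. In FFPE RNA at 0.5 ng, 7 genes were higher in BC57 and 0 lower, where 8.97% of all probe sets were higher and 7.36% lower (16.3% in either direction). At 2 ng, 25 were higher and 1 lower, where 18.4% of all probe sets were higher and 20.2% lower (38.7% in either direction). At 50 ng with SensationPlus 33 were higher and 0 lower, where 24.0% were higher and 19.9% lower (43.9%). BC57 thus had the higher signal in nearly every call, while calls over all probe sets ran both ways. In FF RNA, 27 were higher and 1 lower at 0.5 ng, where 25.0% of all probe sets were higher and 18.8% lower (43.9%). At 2 ng 38 were higher and 2 lower, where 33.7% were higher and 23.3% lower (57.0%). At 100 ng with WT Plus 18 were higher and 2 lower, where 27.6% were higher and 23.1% lower (50.7%). The 20 of 49 genes past the test at FF 100 ng were thus a smaller share than that of all probe sets, with the direction again mostly upward.

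The differences were mostly small. The median BC57 minus urothelium difference of the 49 genes was 0.26, 0.33 and 0.56 in FFPE RNA at 0.5, 2 and 50 ng, beside -0.08, -0.10 and -0.01 for all probe sets. In FF RNA it was 0.36, 0.34 and 0.16 at 0.5, 2 and 100 ng, beside 0.07, 0.10 and 0.07 for all probe sets. Probe sets brighter than the median, 38 of the genes among them, had medians of 0.06, 0.10 and 0.16 in FFPE RNA. In FF RNA these were 0.12, 0.12 and 0.08. Of the 38 genes 10, 21 and 28 were called higher in FFPE RNA, where 19.0%, 34.4% and 43.1% of these probe sets were. In FF RNA 24, 29 and 15 were, beside 40.5%, 45.3% and 42.6%. Past the test and at least 2-fold were 2, 6 and 6 genes in FFPE RNA, where 4.50%, 7.36% and 15.7% of all probe sets were, and 4, 3 and 2 genes in FF RNA, where 15.0%, 15.0% and 15.4% were. These were smaller shares than those of all probe sets except at FFPE 2 ng. The small and large subunits moved alike in number, with 8 of 23 small-subunit genes and 10 of 26 others higher at FF 100 ng, and 15 of 23 and 18 of 26 higher at FFPE 50 ng.

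Leaving out 1 array moved 2 of these counts by over 1.5 times. At FF 2 ng the 40 genes past the test became 26 without urothelium replicate 1 or without BC57 replicate 2. At FFPE 0.5 ng the 7 became 4 without urothelium replicate 3 and 3 without BC57 replicate 2. With 1 fit on all 32 arrays, 18 rather than 7 genes passed at FFPE 0.5 ng, 25 rather than 40 at FF 2 ng, and 11 rather than 20 at FF 100 ng.

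**Figure D2:**
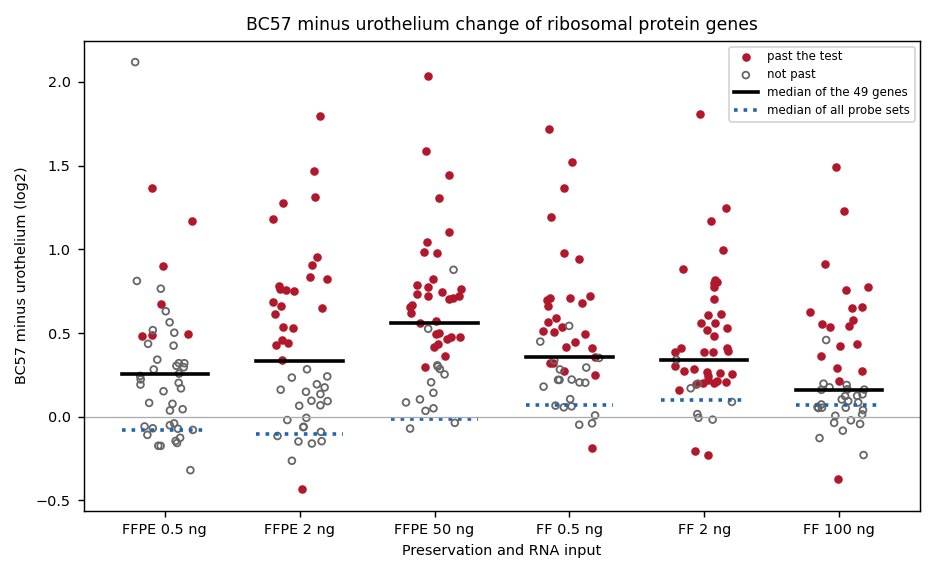
BC57 minus urothelium difference (log2, vertical axis) of 46 of the 49 ribosomal protein genes in each preservation and input (horizontal axis), with genes past the test filled and others open. The solid line is the median of the 49 genes and the dotted line that of all probe sets. The solid line lies above the dotted line in all 6 conditions, by the most at FFPE 50 ng (0.56 against -0.01).

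Across the 6 conditions, 28 of the 49 genes (57.1%) had a positive difference in all 6, against 23.1% of all probe sets. Only Rps24 and Rpl8 passed and were higher in all 6 (4.08% of the genes, against 7.51% of all probe sets). Higher in all 3 FF conditions were 14 genes (28.6%, against 21% of all probe sets), and 0 were lower in all 3 (16.8% of all probe sets). Of the genes 6.12% passed in 0 of the 6 conditions, Rpl15 and Rpl18 among them, against 24.5% of all probe sets. Higher in at least 1 condition and lower in another were 8.16% of the genes, among them Rps4x, Rpl19 and Rpl35, against 3.56% of all probe sets. The conditions share cell sources, so their calls are not independent of one another.

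Rps24, a small-subunit protein needed for the maturation of the small-subunit RNA (probe set ENSMUSG00000025290_at), had the most regular difference. At FF 100 ng it read 7.26 and 7.44 on BC57 arrays and 5.62 and 6.09 on urothelium arrays, a difference of 1.49 ± 0.16 (SE, n = 2 each, limma adjusted p = 0.000327), or 2.82-fold. The groups did not overlap. Its difference was 1.17, 1.46 and 1.45 in FFPE RNA at 0.5, 2 and 50 ng, and 1.36 and 1.17 in FF RNA at 0.5 and 2 ng, and all 6 passed the test. At FFPE 0.5 ng the adjusted p was 0.0186, and it became 0.0526 to 0.0634 without urothelium replicate 1 or 2 or without BC57 replicate 2.

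Rpl3, a core protein of the large subunit close to the site of peptide bond formation (ENSMUSG00000060036_at), was higher in BC57 in 5 of 6 conditions. At FF 100 ng it read 8.22 and 7.94 in BC57, against 6.94 and 6.76 in urothelium, a difference of 1.23 ± 0.11 (SE, n = 2 each, adjusted p = 0.000171). All BC57 arrays were above the urothelium arrays, and with 1 fit on all 32 arrays the adjusted p was 0.0513. The difference was 1.79 and 1.59 in FFPE RNA at 2 and 50 ng and 1.52 and 1.25 in FF RNA at 0.5 and 2 ng. In FFPE RNA at 0.5 ng BC57 read 8.10, 8.59 and 8.32 and urothelium 4.72, 7.97 and 5.97, so the urothelium repeats spread over more than 3 log2 units and the difference of 2.12 ± 0.71 did not pass (adjusted p = 0.0892). Without urothelium replicate 2, the high array, it was 2.99 with an adjusted p of 0.00548, and with 1 fit on all arrays the adjusted p was 0.000201.

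Rpl38, a large-subunit protein that mouse embryos need for the translation of Hox messages (ENSMUSG00000057322_at), had a cell source difference that was unequal between conditions. In FF RNA with WT Pico at 2 ng it read 8.40, 8.06 and 8.34 in BC57 and 6.32, 6.41 and 6.65 in urothelium, a difference of 1.81 ± 0.11 (SE, n = 3 each, adjusted p = 2.3e-07). At 0.5 ng the difference was 1.72, and in FFPE RNA with SensationPlus at 50 ng it was 2.03. With WT Plus at 100 ng of FF RNA the arrays read 7.36 and 7.37 in BC57 and 7.08 and 7.22 in urothelium, a difference of only 0.22 ± 0.07 (adjusted p = 0.0412). That call was lost with quantile normalization (0.10, adjusted p = 0.221), with 1 fit on all arrays (0.298), without an intensity trend (0.0565) and without any 1 of 3 of the 4 arrays (0.0923 to 0.212). In FFPE RNA with WT Pico it was 0.68 at 2 ng, past the test, and 0.30 at 0.5 ng (adjusted p = 0.262). BC57 signals ranged from 7.08 to 8.40 over all conditions and urothelium signals from 5.83 to 7.30.

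Rpl14 and Rpl12, both of the large subunit, completed the 4 largest rises at FF 100 ng. Rpl14 read 6.47 and 5.88 in BC57 and 5.11 and 5.41 in urothelium there (0.91 ± 0.20, adjusted p = 0.00954). Rpl12, which sits at the base of the stalk, read 7.11 and 6.86 in BC57 and 6.26 and 6.16 in urothelium (0.77 ± 0.10, adjusted p = 0.000797). Neither gene's groups overlapped. Rpl12 was higher in 5 of 6 conditions, by up to 1.10 at FFPE 50 ng, while at FFPE 0.5 ng its difference of 0.34 did not pass (adjusted p = 0.304). Rpl14 was higher in 4 of 6, and its 0.88 at FFPE 50 ng (adjusted p = 0.0889) came from BC57 arrays of 6.76 and 7.75 beside urothelium arrays of 6.09 and 6.67. That difference passed with 1 fit on all arrays (0.00842), with the brighter probe sets only (0.0346) and without BC57 replicate 1 (1.37, 0.00285). Of the 4 Rpl14 calls, that at FF 2 ng was lost with centred arrays (adjusted p = 0.0727), quantile normalization (0.0948), 1 fit on all arrays (0.144), no intensity trend (0.0516) and without any 1 of 4 of the 6 arrays (0.0548 to 0.136), and that at FF 0.5 ng with 1 fit on all arrays (0.0587).

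Rpl8 was the other gene higher in all 6 conditions. At FF 100 ng it read 11.41 and 11.30 in BC57 and 11.00 and 10.98 in urothelium, a difference of 0.36 ± 0.07 (SE, n = 2 each, adjusted p = 0.00617). In FFPE RNA at 0.5 ng it read 10.42, 10.44 and 10.41 in BC57 and 9.68, 9.39 and 9.49 in urothelium (0.90 ± 0.11, adjusted p = 0.00183). The groups did not overlap in any condition, and the difference was 0.95 and 0.43 in FFPE RNA at 2 and 50 ng and 0.25 and 0.16 in FF RNA at 0.5 and 2 ng. The Rpl8 call at FF 2 ng was lost with centred arrays (adjusted p = 0.0731), 1 fit on all arrays (0.0935), no intensity trend (0.0626) and without any 1 of 5 of the 6 arrays (0.0668 to 0.103). That at FFPE 50 ng was lost with quantile normalization (0.19, 0.23) and without urothelium replicate 2 or either BC57 array (0.0752 to 0.192).

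Other large rises differed in size between conditions. Rps7 and Rps25 had positive differences in all 6 conditions, of 0.76 to 1.19 and of 0.16 to 1.37, and each passed in 5. Rpl30 was positive in all 6 and passed in 4, while Rpl37 was positive in 3 and passed in 2. Rps25 read 9.10, 10.09 and 9.47 in BC57 and 7.67, 8.24 and 8.65 in urothelium in FFPE RNA at 0.5 ng, its largest difference (1.37 ± 0.31, adjusted p = 0.0256), and differed by 1.31 ± 0.16 at FFPE 2 ng (0.000335). The groups did not overlap at FFPE 0.5 ng, but the call there was lost with quantile normalization (0.0748) and without urothelium replicate 1 or 2 or BC57 replicate 2 or 3 (0.0642 to 0.0668). Rps27a rose most at FFPE 50 ng, with 5.96 and 5.84 in BC57 and 4.89 and 4.83 in urothelium (1.04 ± 0.09, 0.000303), and Rpl30 by 1.31 ± 0.18 in the same arrays (0.00179). Rpl37 read 8.50, 8.64 and 8.69 in BC57 and 7.54, 7.62 and 7.70 in urothelium at FF 2 ng (0.99 ± 0.07, 7.96e-07), while at FF 100 ng its arrays of 8.24 and 8.73 in BC57 and 8.60 and 8.82 in urothelium overlapped.

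The falls were small and few. At FF 100 ng Rpl19, which forms a bridge between the subunits, read 5.97 and 6.05 in BC57 and 6.25 and 6.51 in urothelium (-0.37 ± 0.10, adjusted p = 0.0196). The groups were separate, but the call was lost with 1 fit on all arrays (0.118) and without urothelium replicate 2 or BC57 replicate 1 (0.0662 each). In FFPE RNA at 2 ng Rpl19 was higher in BC57, by 0.44. Rplp1 was lower in BC57 at FF 0.5 ng (-0.19) and FF 2 ng (-0.23), where its arrays read 12.81, 12.82 and 12.82 in BC57 and 13.03, 13.06 and 13.03 in urothelium, close to the highest value of the table (13.22). With quantile normalization the Rplp1 differences were 0.04 (adjusted p = 0.635) and 0.08 (0.256), and the call at FF 0.5 ng was also lost with centred arrays (0.0841), 1 fit on all arrays (0.066) and no intensity trend (0.107).

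**Figure D3:**
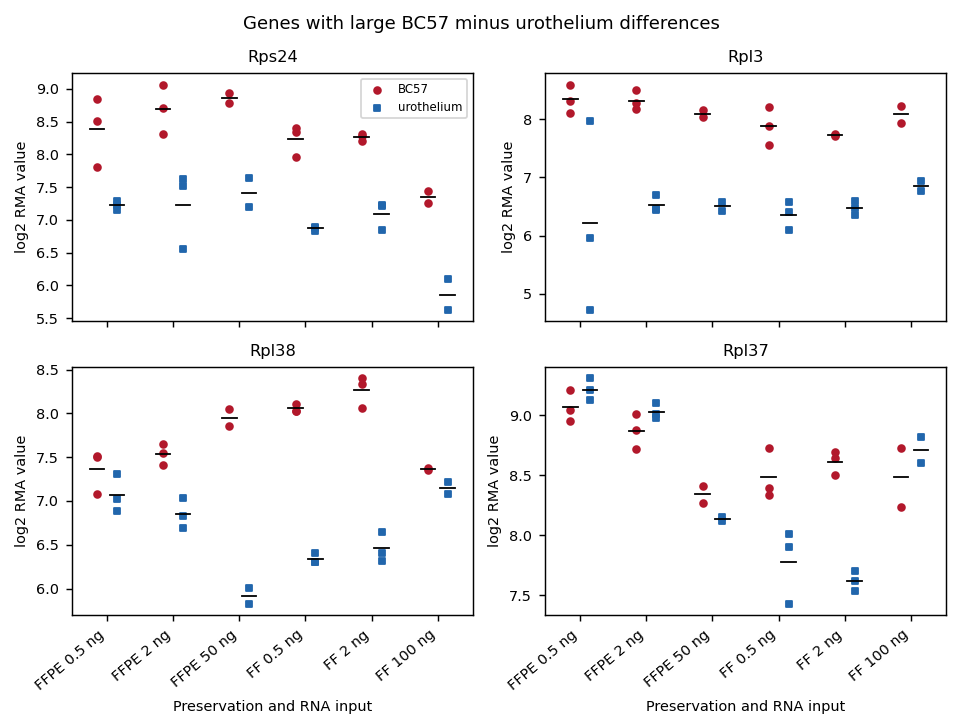
Log2 RMA signal (vertical axes, which do not start at 0) of Rps24, Rpl3, Rpl38 and Rpl37 on each array of BC57 (circles) and urothelium (squares), by preservation and input (horizontal axes), with bars at the group means. Rps24 and Rpl3 are separate in all 6 conditions, and the gap of Rpl38 is narrow at FF 100 ng (0.22) and wide at FF 2 ng (1.81).

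Genes used as PCR references differed between the cell sources in most conditions, though several of these calls hung on the setting. Rplp0, a stalk protein, differed by 0.05 ± 0.06 at FF 100 ng (adjusted p = 0.512), where it read 8.78 and 8.79 in BC57 and 8.69 and 8.78 in urothelium, so the arrays nearly met. It was higher in BC57 in the other 5 conditions, by 0.68, 0.84 and 0.47 in FFPE RNA at 0.5, 2 and 50 ng and by 0.42 and 0.56 in FF RNA at 0.5 and 2 ng. Quantile normalization over all arrays ended the calls at FFPE 2 ng (0.30, adjusted p = 0.0518), at FFPE 50 ng (0.01, 0.949) and at FF 0.5 ng (0.20, 0.275), where the call was also lost without any 1 of 3 of the 6 arrays (0.052 to 0.0661).

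Rps18, of the small subunit, differed by 0.63 (adjusted p = 0.0614), 0.75 and 0.77 in FFPE RNA and by 0.32, 0.22 and 0.16 (adjusted p = 0.101) in FF RNA, in the order 0.5, 2 and then 50 or 100 ng. Its call at FF 0.5 ng was lost without any 1 of 5 of the 6 arrays (0.0618 to 0.107), and that at FF 2 ng with 1 fit on all arrays (0.152) and without any 1 of 4 of the 6 arrays (0.0503 to 0.0791). Its difference at FFPE 0.5 ng passed with centred arrays (0.0417), 1 fit on all arrays (0.000253), the brighter probe sets only (0.0376) and without urothelium replicate 1 (0.0172), and that at FF 100 ng with centred arrays (0.0284) and quantile normalization (0.0264). Rpl13a, of the large subunit, differed by 0.19 (adjusted p = 0.26), 0.66 and 0.71 in FFPE RNA and by 0.72, 0.41 and 0.20 (adjusted p = 0.13) in FF RNA in the same order. Rps27a, made as a fusion with ubiquitin, differed by 0.42 (adjusted p = 0.0862), -0.06 (0.707) and 1.04 in FFPE RNA and by 0.41, 0.20 and 0.54 in FF RNA. Its call at FF 0.5 ng was lost with quantile normalization (0.061) and without any 1 of 3 of the 6 arrays (0.0847 to 0.147), and that at FF 2 ng with quantile normalization (0.0798), 1 fit on all arrays (0.168) and without any 1 of 5 of the 6 arrays (0.0612 to 0.173). The Rps27a difference at FFPE 0.5 ng passed with quantile normalization (0.64, adjusted p = 0.0439), 1 fit on all arrays (0.0068) and without urothelium replicate 1 (0.0311).

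A test of the difference between differences asked whether the BC57 minus urothelium difference in a condition was unlike that at FF 100 ng. In FFPE RNA at 0.5 ng 2 genes had a more positive and 2 a more negative difference, where 9.22% and 8.55% of all probe sets did (17.8% in all). At 2 ng 12 were more positive and 1 more negative, where 12.4% and 12.2% were (24.6%), and at 50 ng 12 and 0, where 6.68% and 3.55% were (10.2%). In FF RNA 2 genes were more positive and 0 more negative at 0.5 ng, where 1.03% and 0.744% were (1.77%), and 6 and 0 at 2 ng, where 3.01% and 2.77% were (5.78%). Except at FFPE 0.5 ng, the genes that passed therefore nearly all moved towards BC57. A difference of at least 2-fold past the test was found for 0, 2 and 1 genes in FFPE RNA at 0.5, 2 and 50 ng and for 7.46%, 6.32% and 1.53% of all probe sets. In FF RNA it was found for 1 and 3 genes at 0.5 and 2 ng and for 0.650% and 0.758% of all probe sets. The arrays at FF 100 ng, 2 for each source, are shared by all 5 tests, which are not independent.

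The Rpl38 difference was more positive than at FF 100 ng by 1.82 ± 0.13 at FFPE 50 ng (adjusted p = 0.000997), by 1.50 ± 0.12 at FF 0.5 ng (0.000231) and by 1.59 ± 0.16 at FF 2 ng (0.000258). The difference of Rpl37, of the large subunit, was more positive by 1.22 ± 0.18 at FF 2 ng (adjusted p = 0.00246).

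At FFPE 2 ng the differences of Rps25, which some viral messages need to start translation, and Rpl19 were more positive than at FF 100 ng (1.15 ± 0.23, adjusted p = 0.00492, and 0.81 ± 0.14, 0.00216). With quantile normalization the Rps25 value was 0.73 and did not pass (0.0538). At FFPE 50 ng the Rpl30 difference was more positive by 0.87 ± 0.22 (0.0469), a call that was lost with 1 fit on all arrays (0.154), without an intensity trend (0.0532) and without any 1 of 7 of the 8 arrays (0.0514 to 0.153). At FFPE 0.5 ng the Rplp0 difference was more positive by 0.62 ± 0.14 (0.0153), while those of Rpl27, of the large subunit, and Rps20, of the small subunit, were more negative (-0.73 ± 0.19, 0.0271, and -0.61 ± 0.17, 0.033). The Rplp0 call was lost without urothelium FF 100 ng replicate 2 or either BC57 FF 100 ng array (0.0615 to 0.0805). The Rpl27 call was lost with quantile normalization (0.127) and without any 1 of 4 of the 10 arrays (0.052 to 0.133), and the Rps20 call with quantile normalization (0.281) and without any 1 of 8 of the 10 arrays (0.0546 to 0.132). Rpl27 read 5.94, 5.78 and 5.71 in BC57 and 5.85, 5.87 and 5.93 in urothelium at FFPE 0.5 ng, so these groups overlapped, beside 6.22 and 5.84 in BC57 and 5.54 and 5.22 in urothelium at FF 100 ng.

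The counts of these tests hung on the FF 100 ng arrays. The 12 genes at FFPE 50 ng became 4 without urothelium FF 100 ng replicate 1, 3 without its replicate 2, 3 without BC57 FF 100 ng replicate 1 and 1 without its replicate 2, 7 without urothelium FFPE 50 ng replicate 1 and 6 without BC57 FFPE 50 ng replicate 1. The 13 at FFPE 2 ng became 7, 6, 8 and 4 without the same 4 FF 100 ng arrays. The 4 at FFPE 0.5 ng became 2, 0, 0 and 1 without them, 2 without BC57 FFPE 0.5 ng replicate 2 and 1 without its replicate 3. The 6 at FF 2 ng became 3 without BC57 FF 100 ng replicate 2.

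Fixation was compared with freezing within the same cell source, kit and input for WT Pico. The 3 genes with the highest signals in frozen RNA, Rplp1, Rpl4 and Rpl8, were lower in FFPE RNA in both sources and at both inputs. In BC57, 21 genes were higher and 9 lower in FFPE RNA at 0.5 ng, where 53.0% of all probe sets were higher and 24.2% lower (77.2% in either direction), and 25 were higher and 10 lower at 2 ng, where 49.9% were higher and 23.5% lower (73.4%). In urothelium, 32 were higher and 7 lower at 0.5 ng, where 54.5% were higher and 23.7% lower (78.2%), and 27 were higher and 7 lower at 2 ng, where 54.7% were higher and 28.2% lower (82.8%). Only in urothelium at 0.5 ng did the share of the genes past the test reach that of all probe sets. Among probe sets brighter than the median, 45.2% and 43.8% were lower in BC57 at 0.5 and 2 ng, and 43.7% and 51.6% in urothelium. Higher there were 23.4% and 24.6% in BC57, and 24.9% and 26.2% in urothelium. Of the 38 genes in that part, 14 and 19 were higher and 9 and 9 lower in BC57. In urothelium 23 and 20 of them were higher and 7 and 7 lower. The 2-fold rule was met by 6 and 8 genes in BC57 at 0.5 and 2 ng and by 15.3% and 8.26% of all probe sets, and in urothelium by 7 and 7 genes and by 28.2% and 22.7% of all probe sets.

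The number of upward calls depended on the scaling. The median difference over all probe sets was positive, but not every part of the array rose. Among probe sets brighter than the median it was -0.22 and -0.15 in BC57 at 0.5 and 2 ng, and -0.21 and -0.27 in urothelium. The median FFPE minus FF difference was 0.35 and 0.26 for the 49 genes in BC57 at 0.5 and 2 ng, beside 0.39 and 0.28 for all probe sets, and 0.52 and 0.39 in urothelium, beside 0.47 and 0.39. With each array centred on its own median, 11 genes were higher and 14 lower in BC57 at 0.5 ng, where 28.5% of all probe sets were higher and 35.9% lower, and 12 higher and 15 lower at 2 ng, where 21.6% and 34.3% were. In urothelium 11 were higher and 8 lower at 0.5 ng, where 36.0% and 35.9% were, and 9 higher and 16 lower at 2 ng, where 34.8% and 40.4% were. In the 3 comparisons in which more of the genes fell than rose, more of all probe sets did so too. With quantile normalization the splits were 21 higher and 5 lower, and 24 higher and 9 lower, in BC57, where 20.8% and 17.9%, and 19.7% and 18.2%, of all probe sets were. In urothelium they were 19 higher and 8 lower, and 17 higher and 8 lower, where 23.7% and 20.8%, and 26.7% and 24.6%, were.

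These 3 bright genes fell by about 1 to 2 log2 units. At 2 ng Rplp1 averaged 11.90 ± 0.10 in BC57 FFPE RNA and 12.82 ± 0.01 in BC57 FF RNA (SD, n = 3 each), a difference of -0.91 ± 0.09 (SE), and in urothelium it fell by 1.37. Rpl4 fell by 0.93 in BC57 and 1.71 in urothelium, and Rpl8 by 1.03 in BC57 and 1.83 in urothelium. All FFPE arrays of these genes were below all FF arrays of the same source. At 0.5 ng Rplp1, Rpl4 and Rpl8 fell by 1.60, 1.40 and 1.46 in BC57 and by 1.65, 1.36 and 2.11 in urothelium. At 2 ng the falls of Rpl8 and Rpl4 were smaller in BC57 than in urothelium, by 0.79 ± 0.12 (adjusted p = 0.000243) and 0.78 ± 0.14 (0.000786) in the test of the difference. Rps23, a protein of the decoding centre, also fell, by 0.99 and 1.10 in BC57 and 0.61 and 0.56 in urothelium at 0.5 and 2 ng, with arrays that overlapped only in urothelium at 0.5 ng. In urothelium the Rps23 differences were -0.07 (adjusted p = 0.872) and 0.02 (0.903) with quantile normalization, and the call at 0.5 ng was lost without any 1 of 5 of the 6 arrays (0.0612 to 0.118).

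**Figure D4:**
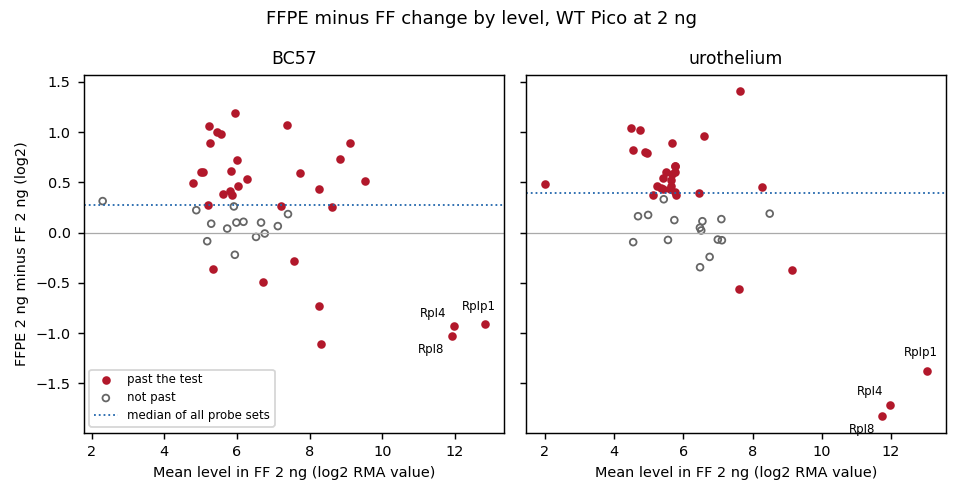
FFPE minus FF difference at 2 ng with WT Pico (log2, vertical axes) of 46 of the 49 genes against their mean FF 2 ng signal (log2 RMA value, horizontal axes), in BC57 (left) and urothelium (right). Filled points passed the test and the dotted line is the median of all probe sets (0.28 in BC57 and 0.39 in urothelium). Rplp1, Rpl4 and Rpl8, at the bright end, lie below 0 in both panels, with Rpl8 at -1.03 and -1.83.

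The largest rises in FFPE RNA were those of other genes in each source, though some of these genes rose in both sources. In BC57 at 2 ng Rpl10, which joins the large subunit late in its assembly, read 6.89, 7.23 and 7.28 in FFPE RNA and 5.73, 5.95 and 6.13 in FF RNA (1.19 ± 0.13, adjusted p = 0.000109), and Rpl28, of the large subunit, rose by 1.07 ± 0.08. At 0.5 ng Rps4x, of the small subunit, rose by 1.11 ± 0.19 in BC57. In urothelium Rpl37 was first at both inputs, reading 8.98, 9.01 and 9.10 in FFPE RNA and 7.54, 7.62 and 7.70 in FF RNA at 2 ng (1.41 ± 0.08, 3.59e-06), and 1.44 ± 0.16 at 0.5 ng. Rpl35, at the mouth of the exit tunnel, rose by 1.04 ± 0.10 at 2 ng and Rps15a, of the small subunit, by 1.04 ± 0.12 at 0.5 ng. None of these groups overlapped. Rpl28 also rose in urothelium at 2 ng, reading 7.26, 7.69 and 7.71 in FFPE RNA and 6.70, 6.63 and 6.43 in FF RNA. Rps15a also rose in BC57 at 0.5 ng, reading 6.40, 6.16 and 6.10 in FFPE RNA and 5.28, 5.22 and 5.37 in FF RNA.

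The fixation difference itself differed between the sources for 7 genes at 0.5 ng, 1 more positive and 6 more negative in BC57, where 9.13% and 10.3% of all probe sets were (19.4% in all). At 2 ng it differed for 18 genes, 11 more positive and 7 more negative, where 17.1% and 24.8% were (41.9%). Such a change was at least 2-fold for 1 gene at 0.5 ng (7.41% of all probe sets) and 2 at 2 ng (6.95%). Rpl38 led at 0.5 ng (-1.42 ± 0.19, adjusted p = 0.000166), followed by Rpl37 (-0.85 ± 0.22, 0.014) and Rpl23 (-0.75 ± 0.16, 0.00547), both of the large subunit. At 2 ng Rpl37 (-1.16 ± 0.12, 1.71e-05) and Rpl38 (-1.12 ± 0.17, 0.000274) led in the negative direction and Rpl14 in the positive (0.89 ± 0.25, 0.0135, and 0.103 with quantile normalization). Rpl38 fell by 0.69 and 0.73 in BC57 at 0.5 and 2 ng and rose by 0.73 and 0.39 in urothelium, where its rise at 2 ng was no larger than the median shift of all probe sets (0.39). The Rpl38 calls in BC57 were lost with quantile normalization (adjusted p = 0.844 and 0.248), and those in urothelium with centred arrays (0.0564 and 0.981). Rpl37 differed by 0.26 in BC57 at 2 ng, near the median shift there (0.28), and by 1.41 in urothelium.

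FFPE RNA at 50 ng with SensationPlus was set against FF RNA at 100 ng with WT Plus, a comparison in which fixation, kit and input cannot be told apart. In BC57, 23 genes were higher and 1 lower, where 21.6% of all probe sets were higher and 18.5% lower (40.1% in either direction), with a median of 0.29 beside 0.10 for all probe sets. In urothelium, 10 were higher and 11 lower, where 32.2% were higher and 24.2% lower (56.3%), with a median of -0.01 beside 0.14. The split there differed by subunit, with 7 of 23 small-subunit genes higher and 1 lower, and 3 of 26 others higher and 10 lower. In BC57 it was 14 higher and 0 lower in the small subunit, and 9 higher and 1 lower among the others. Differences past the test of at least 2-fold numbered 4 in BC57 (4.69% of all probe sets) and 5 in urothelium (7.00%). The BC57 count of 24 became 14 without BC57 FF 100 ng replicate 2, and the urothelium count of 21 became 11 without urothelium FF 100 ng replicate 1 and 13 without its replicate 2. With centred arrays the split was 17 higher and 3 lower in BC57, where 15.2% and 21.6% of all probe sets were, and 7 higher and 14 lower in urothelium, where 20.8% and 28.8% were.

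Rps25 and Rps23 rose most in both sources. Rps25 (ENSMUSG00000009927_at) read 9.31 and 9.08 in BC57 FFPE RNA and 6.42 and 6.22 in BC57 FF RNA (2.87 ± 0.12, adjusted p = 0.00035), and 8.38 and 8.57 in urothelium FFPE RNA and 6.27 and 6.05 in urothelium FF RNA (2.32 ± 0.11, 0.00018). Rps23 (ENSMUSG00000049517_at) rose by 2.02 ± 0.12 in BC57 and 1.86 ± 0.18 in urothelium. None of these groups overlapped. Rpl28 was the only gene that fell in BC57 (-0.35 ± 0.07, 0.013), and its call was lost with quantile normalization (0.0628), with 1 fit on all arrays (0.164) and without BC57 FF 100 ng replicate 1 (0.0815) or 2 (0.105). In urothelium Rpl38 fell most (-1.23 ± 0.10, 0.000414), followed by Rpl19 (-0.87 ± 0.11, 0.00167), while Rpl38 rose in BC57 (0.58 ± 0.09, 0.00549).

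Kits and inputs were compared within a preservation, on the mean of both cell sources. WT Pico at 2 ng against WT Plus at 100 ng, in FF RNA, gave 18 genes higher and 20 lower, where 22.1% of all probe sets were higher and 23.6% lower (45.7% in either direction), with a median of 0.04 beside 0.00 for all probe sets. Past the test and at least 2-fold were 5 genes, all higher with WT Pico, where 3.27% of all probe sets were in either direction and 1.52% were higher. They were Rpl14 (3.60 ± 0.14, adjusted p = 3.63e-09), Rps23 (2.94 ± 0.10, 1.81e-09), Rps25 (2.56 ± 0.08, 8.24e-10), Rps7, which can bind the ubiquitin ligase Mdm2 (1.18 ± 0.12, 6.9e-06), and Rps24 (1.07 ± 0.10, 2.98e-06). The largest fall was that of Rpl19 (-0.94 ± 0.07, 8.65e-07). These genes were named after their values were seen.

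Rpl14 (ENSMUSG00000025794_at) read 9.14, 9.73 and 9.67 in BC57 and 9.21, 8.95 and 9.21 in urothelium at FF 2 ng with WT Pico, against 6.47 and 5.88 in BC57 and 5.11 and 5.41 in urothelium at FF 100 ng with WT Plus. Every WT Pico array was above every WT Plus array. Rps23 read 8.20, 8.35 and 8.38 in BC57 and 7.80, 7.53 and 7.48 in urothelium with WT Pico, against 5.46 and 5.15 in BC57 and 4.97 and 4.49 in urothelium with WT Plus. The groups of these genes were separate in both sources.

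The FFPE comparison of 2 ng with WT Pico and 50 ng with SensationPlus gave 17 genes higher with WT Pico and 11 lower, where 42.9% of all probe sets were higher and 22.7% lower (65.6%), with a median of 0.14 beside 0.17 for all probe sets. The split was 12 higher and 14 lower with centred arrays, where 22.6% and 35.0% of all probe sets were, and 19 higher and 8 lower with quantile normalization, where 22.6% and 22.5% were. Past the test and at least 2-fold were 5 genes, where 5.94% of all probe sets were, among them Rpl14 (2.57 ± 0.20, adjusted p = 3.34e-06), Rpl28 (1.07 ± 0.09) and Rplp1 (-1.27 ± 0.10). Rpl14 was thus higher with WT Pico in both preservations. Rps23 and Rps25, far apart between WT Pico and WT Plus, differed between WT Pico and SensationPlus by 0.17 (adjusted p = 0.233) and 0.50 (0.00339, and 0.0693 with centred arrays).

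**Figure D5:**
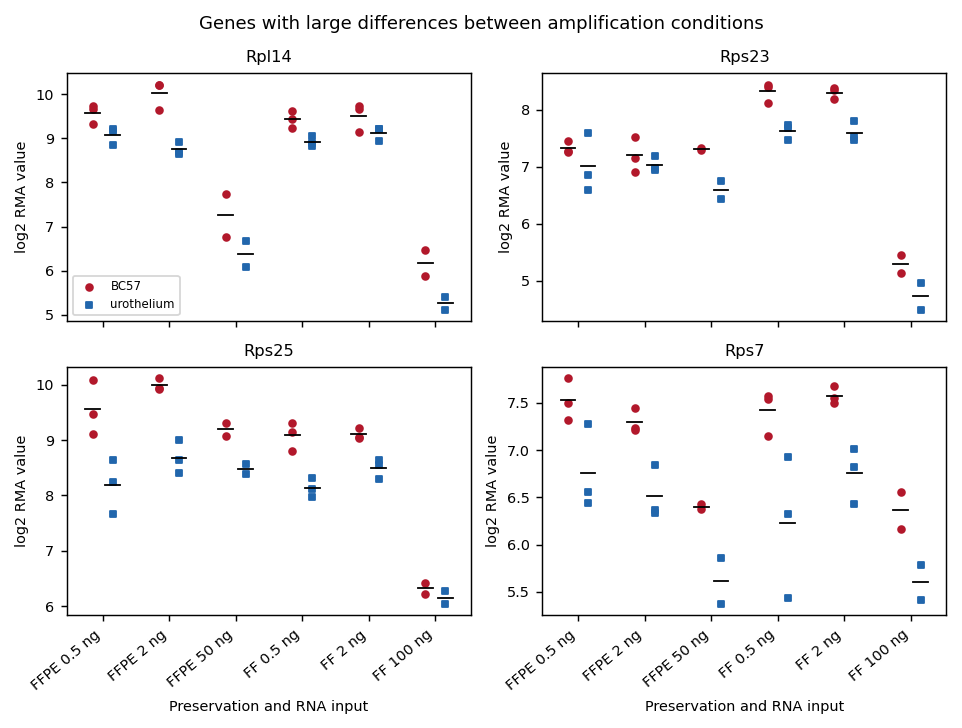
Log2 RMA signal (vertical axes, which do not start at 0) of Rpl14, Rps23, Rps25 and Rps7 on each array of BC57 (circles) and urothelium (squares), by preservation and input (horizontal axes), with bars at the group means. Rps23 and Rps25 are low only at FF 100 ng with WT Plus, and Rpl14 is low at FF 100 ng and FFPE 50 ng.

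Within WT Pico, few of the genes differed between inputs. In FF RNA at 0.5 ng against 2 ng, 0 genes passed (0.306% of all probe sets did) in limma, 8 had an unadjusted p under 0.05 (16.3%, against 8.81% of all probe sets), and 0 passed under each of the alternative settings run. Of all probe sets 0.00942% passed and were at least 2-fold. The differences ranged from -0.34 to 0.17, and the lowest and highest 95% confidence bounds among them were -0.75 and 0.34. In FFPE RNA Rplp1 (-0.58 ± 0.08, adjusted p = 0.0288) and Rpl8 (-0.43 ± 0.07, 0.0356) were lower at 0.5 ng than at 2 ng and 0 genes were higher, where 0.499% of all probe sets were lower and 1.54% higher (2.04%). Of the genes 0 passed and were at least 2-fold, where 0.0141% of all probe sets did. At 0.5 ng Rplp1 read 11.25, 11.02 and 11.18 in BC57 and 11.39, 11.15 and 11.29 in urothelium, against 11.90 ± 0.10 (SD, n = 3) in BC57 and 11.49, 11.74 and 11.78 in urothelium at 2 ng. The ranges of the 2 inputs did not overlap within a source. The count of 2 became 0 with quantile normalization, without urothelium FFPE 2 ng replicate 2, without BC57 FFPE 0.5 ng replicate 2 or without BC57 FFPE 2 ng replicate 1 or 2, and became 1 without urothelium FFPE 0.5 ng replicate 2 or 3, urothelium FFPE 2 ng replicate 1 or 3, BC57 FFPE 0.5 ng replicate 1 or 3 or BC57 FFPE 2 ng replicate 3.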

How the data were processed

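The deposited table, which the authors made with RMA and affy per the submitters' processing notes, holds log2 expression values for 21237 probe sets on 32 arrays. The sources used here do not give the software versions, the array's annotation, or whether RMA ran over all arrays at once. Probe sets are named by Ensembl mouse identifiers, of which 0 matched the RefSeq gene table. Gene names therefore came from the list of 52 members, and lists of other translation genes and of cell type markers were not used here. The members and lists were chosen with earlier results of these data known.

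limma 3.58.1 in R 4.3.3 (lmFit, then eBayes with an intensity trend) was fitted to all probe sets on the arrays of the groups compared, 2 groups for a single difference and 4 for a mean over cell sources or a difference of differences. Benjamini-Hochberg adjustment ran over all 21237 probe sets, with a threshold of 0.05, and a second rule also asked for 2-fold. No filter was applied, and the fit was tested on simulated data. Genes were named by their rank of change in each comparison, with the 3 highest and 3 lowest signals and 4 genes chosen as PCR references or for their fusion with ubiquitin (Rplp0, Rps18, Rpl13a, Rps27a). Values of a few single genes are not reported here. The genes of the kit comparisons and a few that explain a result were named after their values were seen. Replicate numbers carry no stated pairing. Deviations of same-numbered arrays correlated above 0.1 in every pair in 0 of 8 comparisons with 3 pairs and in 3 of 4 with 2 pairs. With 2 pairs both necessarily give the same value, here 0.13 to 0.16 in those 3 comparisons. No block was used in the main fit because no pairing was stated, and these correlations do not settle the choice. Alternatives were centring, quantile normalization, 1 fit on all arrays, no trend, bright probe sets only, a replicate block and leaving out each array. Start windows came from RefSeq on GRCm38.p6, and pyrimidine runs were counted with Python 3.11.15.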

Additional observations from a re-analysis of the deposited data

Results flagged for a closer look

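The following results were singled out because the effect of cell source or of fixation differed between conditions in a test of the difference itself (limma, interaction of the 4 groups, Benjamini-Hochberg adjustment over all probe sets). Values are log2 differences of differences.

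The BC57 minus urothelium difference was unlike that at FF 100 ng for 4 genes at FFPE 0.5 ng, beside 17.8% of all probe sets. It was so for 13 genes at FFPE 2 ng (24.6% of all probe sets) and 12 at FFPE 50 ng (10.2%). In FF RNA it was so for 2 genes at 0.5 ng (1.77%) and 6 at 2 ng (5.78%). Of these, at FFPE 0.5 ng, were Rpl27 (-0.73), Rplp0 (0.62) and Rps20 (-0.61), calls that were lost without any 1 of 3 of the FF 100 ng arrays for Rplp0 (adjusted p = 0.0615 to 0.0805), with quantile normalization (0.127) or without any 1 of 4 of the 10 arrays for Rpl27, and with quantile normalization (0.281) or without any 1 of 8 of the 10 for Rps20. At FFPE 2 ng the genes included Rps25 (1.15, and 0.73 with quantile normalization, where its call was lost) and Rpl19 (0.81), and at FFPE 50 ng Rpl38 (1.82) and Rpl30 (0.87, lost with 1 fit on all arrays, without an intensity trend and without any 1 of 7 of the 8 arrays). At FF 0.5 ng they included Rpl38 (1.50), and at FF 2 ng Rpl38 (1.59) and Rpl37 (1.22).

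The FFPE minus FF difference was unlike between BC57 and urothelium for 7 genes at 0.5 ng, beside 19.4% of all probe sets. Rpl38 (-1.42), Rpl37 (-0.85) and Rpl23 (-0.75) led there. At 2 ng it was unlike for 18 genes, beside 41.9% of all probe sets. These were led by Rpl37 (-1.16), Rpl38 (-1.12) and Rpl14 (0.89, lost with quantile normalization, 0.103). Groups of 2 or 3 arrays are too small for the search for single outlying arrays, which was not made. The cause of these differences was not tested.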

How the results depend on the processing

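Counts of genes past the test moved by at most 1.5 times without an intensity trend (23 of 23 counts). The same held with the brighter probe sets only, which hold 38 of the 49 genes (23 of 23). It held for 22 counts with centred arrays, 21 with the replicate block, 19 with quantile normalization and 16 with 1 fit on all arrays. Asking also for 2-fold left, for BC57 minus urothelium, 2, 6 and 6 genes in FFPE RNA at 0.5, 2 and 50 ng and 4, 3 and 2 in FF RNA at 0.5, 2 and 100 ng. For FFPE minus FF it left 6, 8 and 4 in BC57 at 0.5, 2 and 50 ng and 7, 7 and 5 in urothelium. For kits and inputs it left 5 (FF 2 ng against 100 ng), 5 (FFPE 2 ng against 50 ng) and 0 (FFPE 0.5 ng against 2 ng), and for differences from FF 100 ng 0, 2 and 1 (FFPE 0.5, 2 and 50 ng) and 1 and 3 (FF 0.5 and 2 ng), and for the fixation difference between sources 1 and 2 at 0.5 and 2 ng.

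With 1 fit on all arrays, BC57 minus urothelium counts were 18 at FFPE 0.5 ng, 25 at FF 2 ng and 11 at FF 100 ng, differences from FF 100 ng were 8 (FFPE 0.5 ng), 3 (FFPE 50 ng) and 3 (FF 2 ng), and the fixation difference between sources was 11 at 0.5 ng. With quantile normalization, FFPE 0.5 ng against 2 ng gave 0, differences from FF 100 ng gave 1 (FFPE 0.5 ng) and 5 (FFPE 2 ng), and the fixation difference between sources at 2 ng gave 10. It also turned Rpl13a to 0.39 (urothelium, FFPE minus FF, 2 ng) and 0.47 (BC57, 0.5 ng), Rps27a to -0.43 and -0.65 (urothelium, 2 and 0.5 ng), Rps23 to 0.024 (urothelium, 2 ng), Rplp1 to 0.078 and 0.039 (BC57 minus urothelium, FF 2 and 0.5 ng) and Rpl8 to 0.13 (FFPE 2 ng against 50 ng). Centring left 19 genes for urothelium FFPE minus FF at 0.5 ng, and turned the median change to -0.042 and -0.023 in BC57 FFPE minus FF at 0.5 and 2 ng and to -0.067 in FFPE 2 ng against 50 ng. The cause of these changes was not tested.

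The replicate block gave 0 genes for FFPE 0.5 ng against 2 ng and 2 for the difference at FFPE 0.5 ng from FF 100 ng, 23 for BC57 minus urothelium at FF 100 ng and 36 at FFPE 50 ng, and changed no other count by over 1.5 times. Under the block, BC57 minus urothelium calls at FF 2 ng were lost for Rps18 (adjusted p = 0.0522), Rps27a (0.0731) and Rpl8 (0.0762), as was that of Rps20 in the difference at FFPE 0.5 ng (0.0511) and those of Rplp1 and Rpl8 between FFPE inputs (0.0551 each), while Rpl14 passed at FFPE 50 ng (0.00387). Nothing in the labels pairs the numbers.

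Leaving out each array gave 3 to 9, 22 to 24 and 27 to 29 genes for BC57 minus urothelium in FFPE RNA at 0.5, 2 and 50 ng and 23 to 27, 26 to 33 and 15 to 20 in FF RNA at 0.5, 2 and 100 ng. FFPE minus FF gave 25 to 31, 27 to 32 and 14 to 26 in BC57 and 35 to 38, 31 to 36 and 11 to 22 in urothelium, at 0.5, 2 and 50 ng. Kits gave 32 to 39 (FF) and 26 to 29 (FFPE), inputs 0 (FF) and 0 to 2 (FFPE). Differences from FF 100 ng gave 0 to 6, 4 to 15 and 1 to 9 in FFPE RNA and 2 to 3 and 3 to 6 in FF RNA, and the fixation difference between sources 5 to 9 and 15 to 20. Where an arm had 1 array left, it was assumed to vary like the other groups. Groups of 2 and 3 arrays and dim signals such as that of Rps3a1 limit what could be called.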
